A study of Homo sapiens with 12 samples.

Results

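Replication-dependent histone mRNAs depend on a particular set of factors for their transcription, 3′ end cleavage and decay, and 10 genes of that set were followed here after silencing of cyclin D1 in 2 mantle cell lymphoma lines. The genes were SLBP, NPAT, CASP8AP2, LSM10, LSM11, ZNF473, CPSF3, SYMPK, ERI1 and COIL. They form a list of symbols with known roles in this pathway, and the rule uses no measured value, although earlier results of these data were known when the list was drawn up. All 10 stood on a single row in each table, among 23617 gene symbols for Granta-519 and 23615 for JeKo-1. All 10 also passed the minimum for testing, at least 1 RPKM (reads per kilobase of gene, scaled to the depth of the library) in 3 or more of a line's 6 libraries. Granta-519 and JeKo-1 are established human mantle cell lymphoma lines; in this B-cell tumour CCND1, the cyclin D1 gene, is usually driven by a translocation. Cells of each line carried a lentiviral shRNA, either a control (shCtrl) or one directed at cyclin D1 (shCycD1), and were selected with puromycin. The lines were grown in different media, RPMI or DMEM, and each of the 4 groups held 3 libraries that the series calls biological replicates. The labels do not say whether replicates came from separate infections, so p-values measure the spread between these libraries only.

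Replication-dependent histone mRNAs differ from most mRNAs in that they end in a short conserved stem-loop and normally carry no poly(A) tail. NPAT, a substrate of cyclin E and CDK2, drives their transcription from nuclear histone locus bodies. SLBP binds the stem-loop, the U7 small nuclear ribonucleoprotein (snRNP, with LSM10 and LSM11) pairs with a downstream element, and CASP8AP2 (also called FLASH) bridges to a cleavage complex with the endonuclease CPSF3 and the scaffold SYMPK. ERI1 is a 3′ exonuclease that trims these ends and takes part in their decay when DNA synthesis stops. A stranded mRNA kit was used for library preparation. Kits of this type usually select polyadenylated RNA, which favours the factors' own mRNAs over tailless histone mRNAs.

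CCND1 was lower in every silenced library. In Granta-519 it stood at 924, 1044 and 874 RPKM in shCtrl and at 213, 298 and 292 RPKM in shCycD1. In JeKo-1 control libraries had 395, 330 and 315 RPKM and silenced libraries 65.4, 64.8 and 67.4 RPKM. Within a group the libraries had a Pearson r of 0.97 to 0.99 across genes (log2 values; genes are not independent replicates), and between the groups of a line 0.88 to 0.96. If 1 step of the deposited values is 1 read, the factors rested on 115 to 8087 reads per Granta-519 library, LSM11 having the fewest and ERI1 the most. These read counts are uncertain, as the size of the step goes with a much smaller library than the counts of all genes add up to. Of 8 B-cell and mantle cell lymphoma markers, only CD5 in Granta-519 stayed under 1 RPKM in all libraries of a line. The summed level of these 8 was 2387 to 2503 RPKM in shCtrl and 2178 to 2261 in shCycD1 of Granta-519, and 917 to 1056 and 1286 to 1458 in JeKo-1. T and NK cell markers (8 genes) summed to 1.17 to 1.54 RPKM in Granta-519 and to 2.58 to 3.17 in JeKo-1 across all libraries. Myeloid markers (8 genes) summed to 51.8 to 61.3 RPKM in Granta-519, with S100A8 at 0, and to 1.95 to 2.54 in JeKo-1, with S100A8, S100A9 and FCGR3A at 0. Most of the Granta-519 sum was CSF1R (46.8 RPKM in shCtrl and 41.9 in shCycD1), which was not called, while 2 of the 3 tested myeloid genes rose, FCER1G from 7.17 to 11.7 RPKM (limma, adjusted p = 0.0111) and ITGAM from 1.23 to 1.77 (adjusted p = 0.0329). Epithelial, fibroblast and kidney markers (8 genes) summed to 11.8 to 15.1 RPKM in shCtrl and 15.1 to 19.0 in shCycD1 of Granta-519, and to 2.88 to 3.9004 and 3.57 to 4.39 in JeKo-1, with DCN at 0 there. The part of these markers in the results was not tested.

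Of the 10 histone mRNA factors, 6 fell and 0 rose in each line, and 5 fell in both: SLBP, CASP8AP2, LSM11, CPSF3 and ERI1. The sixth was LSM10 in Granta-519 and NPAT in JeKo-1. The calls are from limma within each line on log2(RPKM + 0.5), with Benjamini-Hochberg adjusted p under 0.05 over all genes. By comparison, 18.2% of the 12668 genes tested in Granta-519 and 27.8% of the 11866 tested in JeKo-1 fell, and 13.1% of 10653 genes tested in both fell in both. The genes that rose were 22.4% and 36.7%, so that 40.6% and 64.6% of all genes were called in either direction, against 6 of 10 factors in each line. At an unadjusted p under 0.05, 1 factor was higher in each line, SYMPK in Granta-519 and LSM10 in JeKo-1. The median log2 change of the 10 was -0.33 in Granta-519 and -0.71 in JeKo-1, against 0.03 and 0.09 for all genes. Groups did not overlap, with shCycD1 lower, for 6 factors in each line (24.2% and 30.5% of all genes) and, with shCycD1 higher, for SYMPK in Granta-519 (29.8% of all genes) and for LSM10 and COIL in JeKo-1 (39.1%). In bulk RNA, fewer cells in the phase that expresses a gene and less of its RNA per cell cannot be told apart.

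RPKM places each gene relative to the rest of its library. Both tables hold synthetic spike-in RNAs, and scaling by them moved the median change of all genes from 0.03 to 0.72 in Granta-519 and from 0.09 to -0.03 in JeKo-1. With that scaling 0 of the 10 factors fell and 3 rose in Granta-519 (ZNF473, COIL and SYMPK). Of all 12668 genes tested there, 157 fell and 7331 rose with it. The median of the 10 was 0.41 against 0.72 for all genes. In JeKo-1 6 factors still fell, where 1788 of 11866 genes fell and 1697 rose. The Granta-519 spike-in level of shCtrl 2 stood apart, at 0.84 (log2, relative to the line's mean) against 0.12 and 0.19 in the other shCtrl libraries and -0.47 to -0.24 in shCycD1. Without that library the spike-in median was 0.49, with 1 factor fallen (CASP8AP2) and 4 risen, against 598 and 7920 of all 12668 genes. In Granta-519 the statement that a gene fell therefore always means that it fell relative to other genes.

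**Figure D1:**
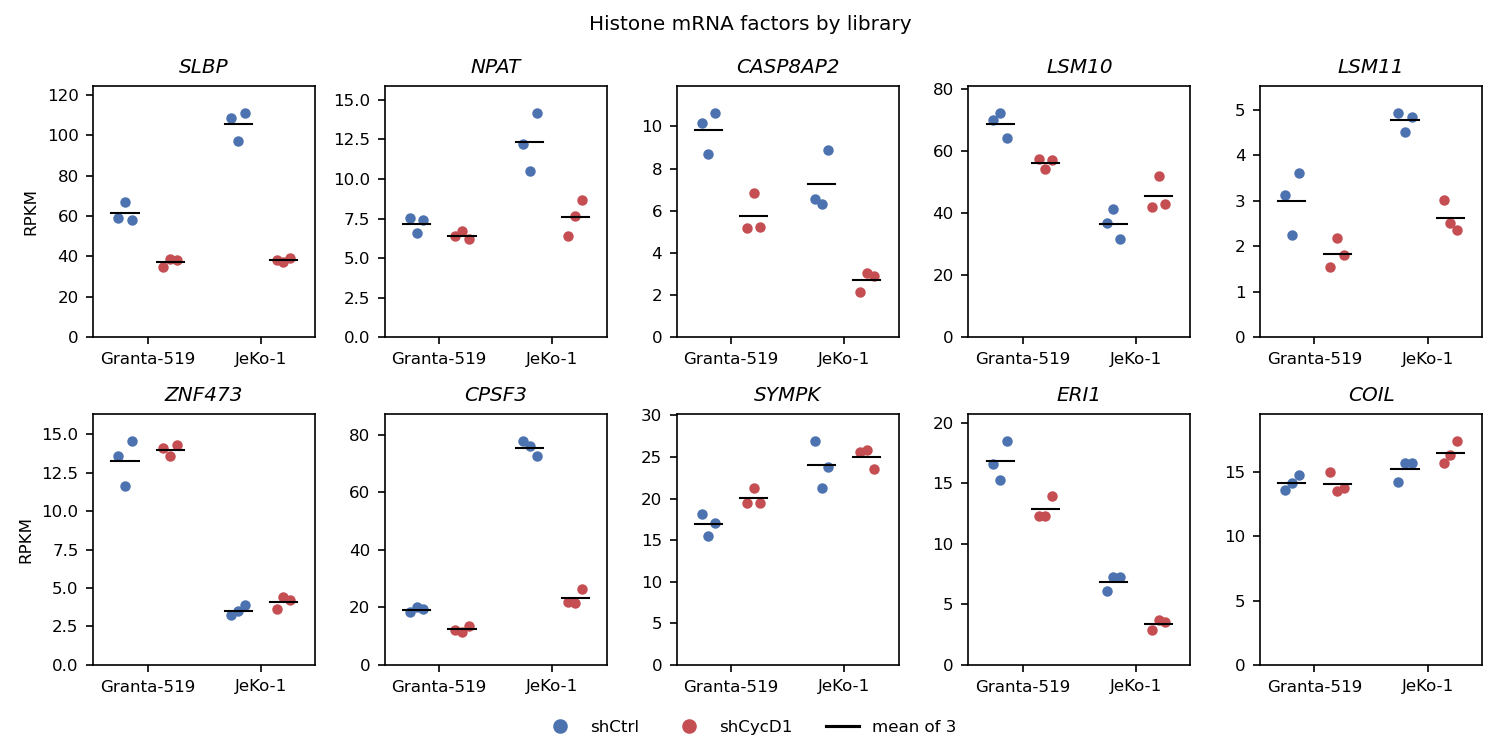
RPKM of the 10 histone mRNA factors (y axis, from 0, a separate scale for each gene) in the 3 shCtrl and 3 shCycD1 libraries of Granta-519 and JeKo-1, with points for libraries and bars for the mean of 3. The shCycD1 points of SLBP, CASP8AP2, LSM11, CPSF3 and ERI1 lie below all shCtrl points in both lines; levels should not be compared between the lines, since the gene length and log base behind the JeKo-1 table are not settled.

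SLBP, the stem-loop binding protein that accompanies histone mRNA from cleavage to translation, had the highest level of the factors in JeKo-1 control cells and fell in both lines (in Granta-519 relative to other genes). Its binding site can be read from the histone transcripts themselves. In GENCODE 29 (build GRCh38), 31 of 70 replication-dependent histone genes matched (44.3%) had a 16-base stem-loop on the sense strand of an annotated coding transcript. The search asked for a stem of 6 base pairs that opens with GG and closes with CC, has a T-A pair next to the loop, and encloses a loop of 4 bases whose last base but 1 is T. Of 19578 other protein-coding genes, 106 (0.541%) had such a stem-loop anywhere in a coding transcript and 5 (0.0255%) in its last 100 bases. For 22 of the 31 histone genes an annotated transcript went on for more than 100 bases past the stem-loop. The 4 commonest forms of the site, carried by 17, 5, 5 and 3 genes in the order below, are shown for the first gene of each by name, since they are the element that SLBP recognises (capitals mark the stem-loop, lower case 5 bases on either side).
HIST1H2AC: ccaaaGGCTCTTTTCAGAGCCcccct
HIST1H4B: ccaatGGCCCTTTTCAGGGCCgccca
HIST1H2BC: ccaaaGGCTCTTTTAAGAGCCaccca
HIST1H4I: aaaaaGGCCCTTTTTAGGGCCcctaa
The outer stem bases are alike because the search fixed them. A gene without a match lacks only these letters in its annotated transcript.

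In Granta-519 SLBP stood at 58.9, 67.1 and 57.9 RPKM in the shCtrl libraries and at 34.8, 38.5 and 38.4 RPKM in the shCycD1 libraries. The groups did not overlap, and the mean went from 61.3 ± 5.08 (SD, n = 3) to 37.2 ± 2.13 RPKM, 60.7% of control. The log2 change was -0.71 ± 0.09 (SE; limma, adjusted p = 0.00105), and 0.03 with spike-in scaling. JeKo-1 controls had 109, 97.3 and 111 RPKM of SLBP, and silenced cells 38.0, 37.3 and 39.4 RPKM. The silenced libraries lay close together, far below the lowest control, at 36.2% of the control mean. The log2 change was -1.45 ± 0.08 (limma, adjusted p = 6.41e-06), and it remained called, at -1.03, when the JeKo-1 values were taken as log2 in place of natural log.

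The 10653 genes tested in both lines were ranked by Pearson correlation with SLBP over the 12 libraries, after subtracting each gene's mean in each line. The closest 3 were HNRNPF (r = 0.998), which encodes an RNA-binding protein, GINS2 (0.997), a subunit of the replicative helicase, and MLF1IP (0.997), a centromere component. These points share the split between shCtrl and shCycD1, and 1260 genes had r above 0.9 with SLBP, so the ranking describes these libraries only. Among the factors themselves CPSF3 (r = 0.98) and CASP8AP2 (0.94) followed SLBP closely.

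NPAT, the activator of histone gene transcription that cyclin E and CDK2 phosphorylate, was called lower in JeKo-1 and not called in Granta-519. The Granta-519 libraries were at 7.51, 6.62 and 7.38 RPKM in shCtrl and 6.37, 6.70 and 6.18 RPKM in shCycD1, and the groups overlapped. Its log2 change there was -0.15 ± 0.08 (limma, adjusted p = 0.203), with a 95% interval of -0.35 to 0.05. With spike-in scaling the change was 0.55 and not called (limma, adjusted p = 0.112). With shCtrl 2 also left out it was 0.29, with a call (adjusted p = 0.0363). In JeKo-1 NPAT was at 12.2, 10.5 and 14.2 RPKM in controls against 6.38, 7.69 and 8.69 RPKM after silencing, without overlap. The mean went from 12.3 ± 1.83 to 7.59 ± 1.16 RPKM (log2 change -0.66 ± 0.15, limma, adjusted p = 0.00549).

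NPAT stands head to head with ATM, the DNA damage kinase gene, and the 250 bases before the NPAT start hold annotated exons of both genes. The JeKo-1 changes of these neighbours had opposite signs. In JeKo-1 ATM rose from 13.7, 16.2 and 19.0 RPKM in shCtrl to 23.5, 24.6 and 23.2 RPKM in shCycD1 (log2 change 0.55 ± 0.12, limma, adjusted p = 0.00546). With spike-in scaling it was at 0.42 and not called. In Granta-519 ATM was at 4.34, 3.41 and 4.72 RPKM in shCtrl and 4.77, 6.63 and 4.65 RPKM in shCycD1 (0.32 ± 0.17, adjusted p = 0.164), and the groups overlapped; with spike-in scaling it was at 0.99, with a call. The sources used here do not say whether reads were counted by strand, which bears on genes that overlap at their starts. The genes closest in pattern to NPAT over the 12 libraries were SP3 (r = 0.9746), a transcription factor gene, KIF21A (0.962), a kinesin gene, and UHRF1BP1L (0.957), with 187 genes above 0.9.

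CASP8AP2, the FLASH protein of the histone locus body that links LSM11 to the cleavage complex, fell in both lines. In Granta-519 it was at 10.1, 8.68 and 10.6 RPKM in shCtrl and at 5.19, 6.83 and 5.23 RPKM in shCycD1. The silenced libraries were all lower than the lowest control, with a log2 change of -0.73 ± 0.13 (limma, adjusted p = 0.00507), and -0.03 with spike-in scaling. In JeKo-1 it went from 6.54, 6.33 and 8.89 RPKM to 2.15, 3.03 and 2.91 RPKM. That is 37.2% of the control mean (log2 change -1.27 ± 0.17, limma, adjusted p = 0.000455). ALMS1 (r = 0.992) and CEP152 (0.991), both genes of centrosome and basal body proteins, and LOC100288637 (0.989) were closest to it in pattern, with 983 genes above 0.9.

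Because SLBP, CASP8AP2, LSM11, CPSF3 and ERI1 fell in both lines, the factors' promoters were searched for motifs of cell cycle genes on both strands of the 250 bases before the start (RefSeq, GRCh38.p14, a later build than that of the tables). The promoter table held 8 of the 10 factors, all but ERI1 and ZNF473. Annotated exons filled much of the window for some factors. The longest stretch without them was 14 bases for SLBP, 0 for NPAT, 20 for CPSF3 and 107 for SYMPK. The E2F motif, taken as TTTCCCGC, TTTGGCGC, TTTGCCGC or TTTCGCGC, was present in 2 of the 8, CASP8AP2 and CPSF3, against 2.79% of all 35116 promoters. In CASP8AP2 the letters TTTGGCGC lay 149 to 142 bases before the start, and in CPSF3 the same letters lay 218 to 211 bases before it, there inside an annotated exon. The cell cycle homology region, TTTGAA or TTCGAA, was in 0 of the 8 (14.3% of all promoters), and CCAAT was in 3, NPAT, CASP8AP2 and LSM10 (32.0%). The CASP8AP2 promoter is printed because it holds an E2F match in a factor that fell in both lines. That of LSM10 is printed because its changes with the deposited RPKM had opposite signs in the lines. Its JeKo-1 change was not called, and its Granta-519 change was 0.46 with spike-in scaling. The printed promoters lie at chr6:89829630-89829879 on the + strand and at chr1:36397909-36398158 on the - strand. Both are read in the direction of the gene, with the E2F letters in capitals. No E2F match overlapped another motif searched.
CASP8AP2: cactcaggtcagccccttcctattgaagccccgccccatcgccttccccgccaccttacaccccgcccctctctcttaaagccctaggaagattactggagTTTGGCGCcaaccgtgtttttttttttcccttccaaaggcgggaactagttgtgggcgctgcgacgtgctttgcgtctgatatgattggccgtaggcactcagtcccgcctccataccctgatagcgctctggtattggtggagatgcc
LSM10: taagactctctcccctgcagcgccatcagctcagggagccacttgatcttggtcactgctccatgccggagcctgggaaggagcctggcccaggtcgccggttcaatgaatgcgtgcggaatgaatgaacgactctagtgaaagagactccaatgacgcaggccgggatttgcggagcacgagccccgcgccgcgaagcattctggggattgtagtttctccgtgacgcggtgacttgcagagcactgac
A match is a run of letters and not evidence of binding.

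LSM10 and LSM11 replace a pair of the usual Sm proteins in the U7 snRNP, and in JeKo-1 only LSM11 was called. LSM11 fell in both lines. It stood at 3.14, 2.25 and 3.61 RPKM in Granta-519 shCtrl and at 1.54, 2.17 and 1.80 RPKM in shCycD1, with the lowest control just above the highest silenced library. The log2 change was -0.57 ± 0.17 (limma, adjusted p = 0.0377; 0.03 with spike-in scaling). That call ended on leaving out shCtrl 1 or 3 or shCycD1 1 or 3 (values of -0.56 to -0.44) and without the filter on low values (adjusted p = 0.105; range over all alternatives 0.00939 to 0.93). LSM11 also had the fewest reads of the 10, 115 to 267 per Granta-519 library on the same assumption. In JeKo-1 LSM11 went from 4.93, 4.52 and 4.85 RPKM to 3.02, 2.52 and 2.35 RPKM, a clear gap, with a log2 change of -0.76 ± 0.11 (limma, adjusted p = 0.000746).

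LSM10 was at 69.9, 72.4 and 64.3 RPKM in Granta-519 shCtrl and at 57.6, 54.2 and 57.2 RPKM in shCycD1, a small drop without overlap. Its log2 change was -0.29 ± 0.07 (limma, adjusted p = 0.0188), a call lost without shCtrl 1 or without any of the shCycD1 libraries (values of -0.30 to -0.26; adjusted p of 0.0123 to 0.145 over all alternatives), and 0.46 with spike-in scaling. JeKo-1 controls had 36.9, 41.4 and 31.5 RPKM of LSM10, and silenced cells 41.9, 51.98 and 42.9 RPKM. All silenced libraries were higher, but the log2 change of 0.32 ± 0.13 was not called (limma, adjusted p = 0.0597). It was called under 4 alternatives, among them leaving out shCtrl 2 (0.41, adjusted p = 0.0314), quantile normalization (0.36, adjusted p = 0.0273) and 1 fit of all 12 libraries (adjusted p = 0.0207), and its adjusted p ran from 0.00953 to 0.703 over all alternatives. ZNF473 (also called ZFP100), a zinc finger protein that interacts with LSM11, was called in neither line. It was at 13.6, 11.7 and 14.6 RPKM against 14.1, 13.6 and 14.3 in Granta-519, and at 3.24, 3.48 and 3.898 against 3.66, 4.44 and 4.23 RPKM in JeKo-1. The groups overlapped in both lines, with 95% intervals of the log2 change of -0.15 to 0.31 and -0.07 to 0.45.

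CPSF3 and SYMPK are both parts of the cleavage complex, which also serves ordinary polyadenylation, and only CPSF3 changed by the test. CPSF3, the endonuclease itself, was at 18.3, 20.1 and 19.3 RPKM in Granta-519 shCtrl and at 12.02, 11.5 and 13.4 RPKM in shCycD1, without overlap. The log2 change was -0.62 ± 0.09 (limma, adjusted p = 0.00178; 0.10 with spike-in scaling). In JeKo-1 CPSF3 had the largest change of the 10, from 78.0, 76.1 and 72.7 RPKM to 21.9, 21.6 and 26.3 RPKM. Silenced libraries kept 30.8% of the control mean (log2 change -1.68 ± 0.09, limma, adjusted p = 9.09e-06). SYMPK, the scaffold, was at 18.2, 15.5 and 17.1 RPKM in Granta-519 shCtrl and 19.5, 21.3 and 19.5 RPKM in shCycD1. Every silenced library was higher there, but the change of 0.24 ± 0.09 was not called (limma, adjusted p = 0.0601; 0.00198 to 0.158 over the alternatives). Quantile normalization gave 0.23 with a call (adjusted p = 0.0494). In JeKo-1 SYMPK overlapped between groups, at 27.0, 21.3 and 23.7 against 25.6, 25.8 and 23.5 RPKM (0.06 ± 0.10, 95% interval -0.18 to 0.30).

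ERI1, the 3′ exonuclease, fell in both lines. It went from 16.6, 15.3 and 18.5 RPKM to 12.3, 12.3 and 14.0 RPKM in Granta-519, and all silenced libraries lay below the lowest control. Its log2 change there was -0.37 ± 0.10 (limma, adjusted p = 0.0225; 0.36 with spike-in scaling), a call lost without shCtrl 1 or 3 or shCycD1 1 or 2 (values of -0.38 to -0.30; adjusted p of 0.0108 to 0.608 over all alternatives). In JeKo-1 it went from 6.12, 7.26 and 7.24 RPKM to 2.86, 3.69 and 3.54 RPKM, 48.9% of the control mean (log2 change -0.94 ± 0.12, limma, adjusted p = 0.000461). COIL, the scaffold protein of Cajal bodies, was called in neither line. It was at 13.6, 14.1 and 14.8 against 14.97, 13.5 and 13.7 RPKM in Granta-519, with overlap. In JeKo-1 it was at 14.2, 15.69 and 15.71 against 15.72, 16.3 and 17.4 RPKM, where the lowest silenced library lay just above the highest control. Its log2 changes were -0.0094 (95% interval -0.19 to 0.17) and 0.11 (-0.08 to 0.31), neither called (limma, adjusted p = 0.937 and 0.259).

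**Figure D2:**
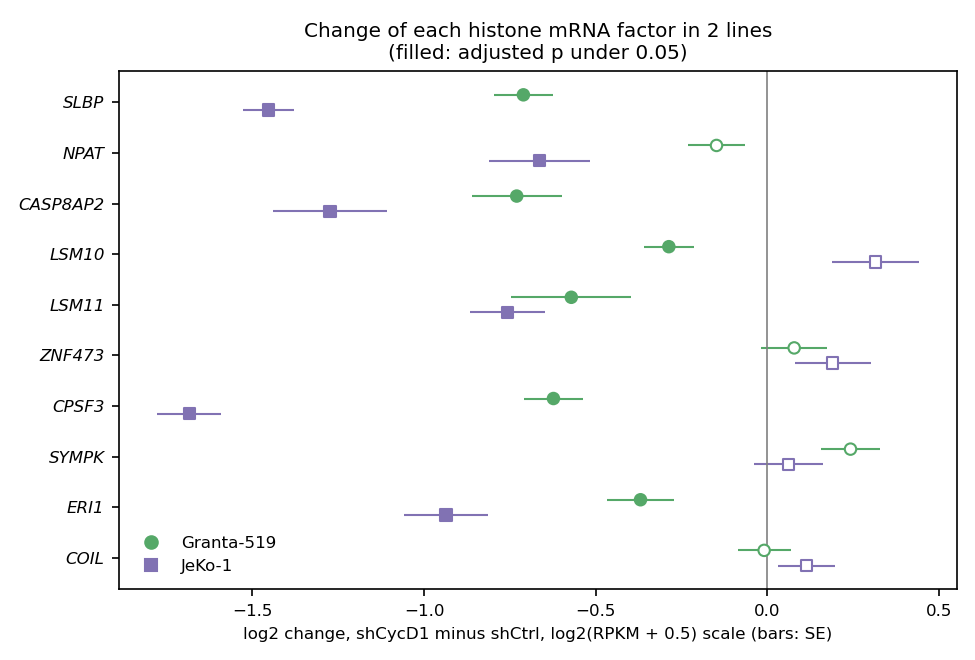
Log2 change of each factor, shCycD1 minus shCtrl on the log2(RPKM + 0.5) scale (x axis, with SE), in Granta-519 (circles) and JeKo-1 (squares); filled symbols passed an adjusted p under 0.05. SLBP, CASP8AP2, LSM11, CPSF3 and ERI1 are filled and below 0 in both lines, with CPSF3 in JeKo-1 lowest at -1.68; with spike-in scaling none of the Granta-519 falls was called.

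Control levels were ordered in JeKo-1, as RPKM from a natural log; the gene length used there is not known. SLBP was highest (106 ± 7.43 RPKM in shCtrl), then CPSF3 (75.6 ± 2.67), LSM10 (36.6 ± 4.92), SYMPK (24.01 ± 2.84), COIL (15.2 ± 0.87) and NPAT (12.3 ± 1.83). CASP8AP2 (7.26 ± 1.42) and ERI1 (6.87 ± 0.66) did not differ beyond their spread, and LSM11 (4.77 ± 0.22) and ZNF473 (3.54 ± 0.33) were lowest. In shCycD1 the order at the top changed, with LSM10 (45.6 ± 5.56) above SLBP (38.3 ± 1.07). All JeKo-1 levels and percentages depend on the log base: read as log2, the control levels would be 24.5 ± 1.24 RPKM for SLBP and 19.2 ± 0.49 for CPSF3, in the same order down to 1.85 ± 0.15 for ZNF473, and silenced cells would keep 47.96% of SLBP and 42.2% of CPSF3. No order is given for Granta-519, where low values came in whole steps per genomic span, introns included.

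The change differed between the lines for 5 of the 10 factors, in a joint limma fit of the 12 libraries over 10653 genes. That share is near the background, since the difference was called for 41.9% of all genes. For 4 of them, CPSF3, SLBP, ERI1 and NPAT, the change was less negative in Granta-519 than in JeKo-1 (19.3% of all genes were called on that side). The difference, Granta-519 minus JeKo-1, was 1.06 ± 0.13 for CPSF3 (adjusted p = 6.83e-05) and 0.74 ± 0.11 for SLBP (adjusted p = 0.000366). For ERI1 it was 0.57 ± 0.16 (adjusted p = 0.0128) and for NPAT 0.52 ± 0.17 (adjusted p = 0.0322). Spike-in scaling made these 4 larger and kept their calls, at 1.92 for CPSF3, 1.61 for SLBP, 1.41 for ERI1 and 1.34 for NPAT. That scaling also moved the median change of all genes, from 0.03 to 0.72 in Granta-519 and from 0.09 to -0.03 in JeKo-1. The larger values are therefore not particular to these 4 factors. LSM10 was the only factor called on the other side, at -0.60 ± 0.15 (adjusted p = 0.00772), and was at 0.27 with spike-in scaling (adjusted p = 0.596). Taking the JeKo-1 values as log2 left 3 differences called, CPSF3 (0.58), SLBP (0.32) and LSM10 (-0.51), and those of ERI1 (0.33, adjusted p = 0.0794) and NPAT (0.34, adjusted p = 0.0786) were lost. For NPAT, leaving out shCtrl 2, shCycD1 1 or shCycD1 2 of Granta-519, or shCtrl 1, shCtrl 3 or shCycD1 1 of JeKo-1, also ended the call (0.40 to 0.52). CASP8AP2 (0.54 ± 0.22, adjusted p = 0.0693) and LSM11 (0.19 ± 0.21, adjusted p = 0.508) fell in both lines without a called difference. That of CASP8AP2 was called with quantile normalization (0.64, adjusted p = 0.026) and with spike-in scaling (1.36, adjusted p = 0.00573; range over all alternatives 0.00573 to 0.399).

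**Figure D3:**
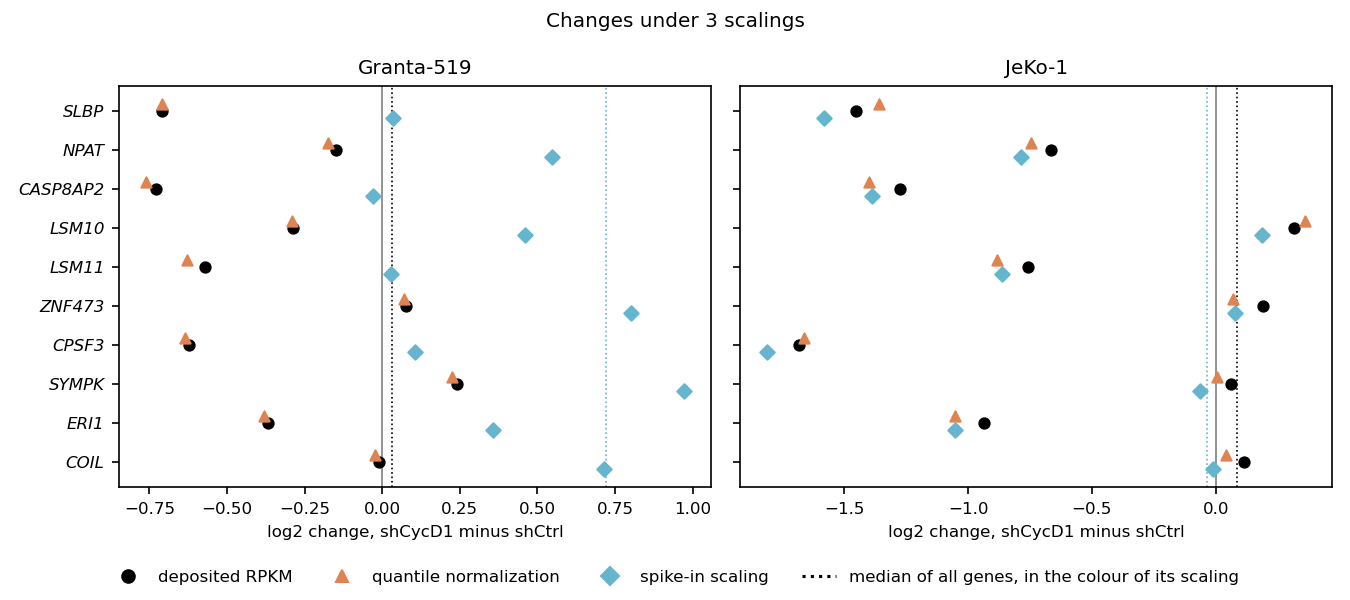
Log2 change of each factor (x axis) in both lines with the deposited RPKM, with quantile normalization and with spike-in scaling; dotted lines mark the median change of all genes with the deposited RPKM (black) and with spike-in scaling (blue). In Granta-519 spike-in scaling moves all 10 factors up with the median of all genes, to 0.72, and in JeKo-1 COIL (-0.011) and SYMPK (-0.065) move from above 0 to below it.

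The other genes of the pathway were counted by lists chosen for known function. The counts of all 7 lists stand beside the shares of all genes. These were 18.2% fallen and 22.4% risen in Granta-519, and 27.8% fallen and 36.7% risen in JeKo-1. Of 10 genes of histone gene transcription, 6 fell and 0 rose in Granta-519 (0 rose at an unadjusted p under 0.05), and 5 fell and 4 rose in JeKo-1 (limma). The called falls, as log2 changes in Granta-519 and then in JeKo-1, included CDK2 (-1.35 and -1.91), the kinase that phosphorylates NPAT, CCNE2 (-0.85 and -2.01), one of its cyclins, and E2F1 (-1.42 and -1.95). The genes that rose in JeKo-1 were CRAMP1L (-0.11 and 1.13), HINFP (0.06 and 0.62), KAT5 (-0.19 and 0.48) and GON4L (0.12 and 0.30). In Granta-519 KAT5 was called lower and the others were not called. These risen genes were named after their values were seen. Of 7 Sm proteins, most of them shared between U7 and spliceosomal snRNPs, 3 fell in Granta-519 and all 7 in JeKo-1, with 0 risen in either line (0 at an unadjusted p under 0.05). The largest falls called in both lines were those of SNRPG (-0.40 and -1.01), SNRPF (-0.55 and -0.90) and SNRPB (-0.76 and -0.74), subunits of the shared Sm ring.

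Of 17 genes of general cleavage and polyadenylation, 10 fell and 0 rose in Granta-519 (0 rose at an unadjusted p under 0.05), and 11 fell and 2 rose in JeKo-1 (limma). NUDT21 (-0.48 and -1.07) and CPSF6 (-0.35 and -0.54), both subunits of cleavage factor I, fell, as did CLP1 (-0.39 and -0.74) of cleavage factor II. CPSF2, the partner of CPSF3, named after its values were seen, had a log2 change of -0.12 (adjusted p = 0.259) in Granta-519 and a called fall, of -0.77, in JeKo-1 (adjusted p = 0.000424). Of 9 genes of cap binding, the NELF complex and elongation, 3 fell and 3 rose in Granta-519 and 2 fell and 4 rose in JeKo-1. Those JeKo-1 counts are near the shares of all genes (27.8% fallen and 36.7% risen). Of the cap-binding subunits, NCBP1 fell (-0.48 and -1.05) and NCBP2 rose (0.51 and 0.40), and SRRT (-0.45 and -0.53), or ARS2, which joins the cap complex to histone mRNA processing, fell.

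Among 12 genes of SLBP protein turnover and histone mRNA translation, 5 fell and 2 rose in each line. Falls called in both lines included CCNF (-1.28 and -1.66), the cyclin F gene whose product marks SLBP for degradation, CDK1 (-1.38 and -3.94) and its cyclin partner CCNA2 (-1.46 and -3.69). Of 15 genes of histone mRNA decay, 6 fell and 0 rose in Granta-519 (0 rose at an unadjusted p under 0.05) and 10 fell and 3 rose in JeKo-1. The falls called in both lines included DCP2 (-0.82 and -1.17), the decapping enzyme, LSM3 (-0.47 and -1.02) of the LSM ring and DCP1A (-0.59 and -0.81), a decapping activator. Of 15 Cajal body and Sm assembly genes, 5 fell and 0 rose in Granta-519 (0 rose at an unadjusted p under 0.05) and 9 fell and 1 rose in JeKo-1. Falls called in both lines included WRAP53 (-0.61 and -0.83), a Cajal body targeting factor, GEMIN4 (-0.65 and -0.36) of the SMN complex and NOLC1 (-0.28 and -0.41), a coilin-binding phosphoprotein.

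Median log2 changes of these 7 lists, in the order given, were -0.40, -0.35, -0.28, -0.08, -0.11, -0.20 and -0.17 in Granta-519, against 0.03 for all genes. In JeKo-1 they were -0.35, -0.88, -0.32, 0.13, -0.13, -0.42 and -0.31, against 0.09. With spike-in scaling the Granta-519 medians were 0.30 to 0.62 against 0.72 for all genes, and the fallen genes were 1 of histone gene transcription and 2 of SLBP turnover, while 2, 1, 3, 4, 6, 5 and 6 genes of the lists rose. In JeKo-1, spike-in medians were -1.01 to 0.0063 against -0.03, with 5, 4, 3, 1, 4, 5 and 1 genes fallen and 1, 0, 0, 0, 1, 0 and 0 risen. Of all genes tested, 157 of 12668 fell and 7331 rose in Granta-519 with spike-in scaling. In JeKo-1 1788 of 11866 fell and 1697 rose with it.

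Most of the tested histone genes themselves rose in Granta-519. Of 72 replication-dependent histone symbols, 60 were tested there, of which 37 rose and 7 fell (median 1.15). The background shares of that line were 22.4% risen and 18.2% fallen. Spike-in scaling gave 44 risen and 3 fallen histone genes there, against a background of 7331 risen and 157 fallen out of 12668. In JeKo-1 8 of 59 histone genes rose and 25 fell (median -0.25), against background shares of 36.7% and 27.8%. A gene could pass the filter on low values through its higher group alone, so these counts and medians depend on the filter. Without it, the median of all 72 symbols was 0.70 in Granta-519 and -0.23 in JeKo-1. Spike-in scaling gave 4 risen and 24 fallen histone genes in JeKo-1 (median -0.37), against 1697 and 1788 out of 11866. Many replication-dependent histone genes of the same class are similar in sequence, which makes single values uncertain. In JeKo-1 HIST2H4A and HIST2H4B had the same values in every library, as did HIST2H3A and HIST2H3C. The JeKo-1 counts therefore hold some values more than once. A kit that selects poly(A) would also leave most tailless histone mRNA unmeasured.

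**Figure D4:**
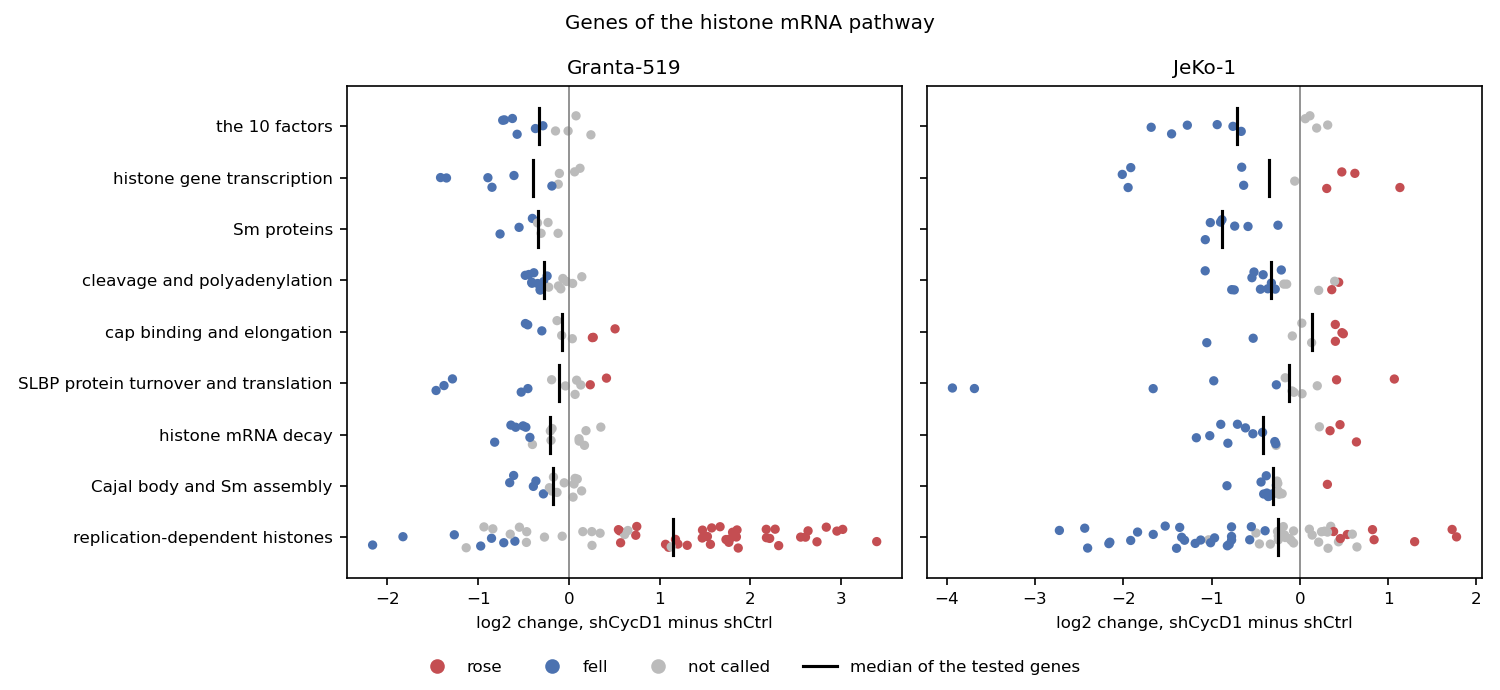
Log2 change, shCycD1 minus shCtrl (x axis), of each tested gene (points, spread vertically at random for legibility) in the 10 factors, the 7 pathway lists and the replication-dependent histone genes (rows), coloured by the limma call, with the median of each row as a black bar. The 10 factors have medians of -0.33 and -0.71 and the histone genes of 1.15 and -0.25; with spike-in scaling the factors' Granta-519 median was 0.41.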

How the data were processed

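For each line there is 1 deposited table, in which the authors give a value per gene for each of 6 libraries. Per the submitters' processing notes, FastQC, TopHat2 2.1.1, limma 3.9 and the builds GRCh37 and hg19 were used; no source used here names the read counter, the annotation or the log transform. The tables are titled RPKM, and each deposited value was taken to be a natural log, of RPKM + 1. In Granta-519, low values of genes with a genomic span under 5000 bases were whole multiples of 1 step (tolerance 0.1) in 81.9 to 84.0% of cases with the natural log and in 38.7 to 53.6% with other bases, where chance gives 20%. For JeKo-1 no base gave more than 37.4%, so its base is not settled and its depth is unknown. With 1 step as 1 read, the counts of all genes add up to about 29539722 to 39548055 per Granta-519 library. The size of the step goes with a much smaller library, so the depth of Granta-519 is uncertain too.

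Values were taken out of the log, keeping the row with the highest mean for each symbol. limma 3.58.1 (R 4.3.3; empirical Bayes with a trend) was fitted per line on log2(RPKM + 0.5), a scale that understates the change of low genes, and jointly for the difference between lines. Intervals are 95% intervals from these fits. The script was tested on simulated data. The factors, pathway lists and tests were chosen with earlier results of these data known. Named were all 10 factors and, per list, the 3 genes with the largest change among those called the same way in both lines. CPSF2 and the genes of histone gene transcription that rose in JeKo-1 were named after their values were seen. No gene coordinates of the tables' build were used. Sequences were matched by symbol to RefSeq and GENCODE tables of GRCh38.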

Additional observations from a re-analysis of the deposited data

Results flagged for a closer look

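The change on silencing differed between the lines, by the test of the difference itself (joint limma fit, Granta-519 minus JeKo-1, log2), for 5 of the 10 factors, where 41.9% of all genes were called. The differences were 1.06 for CPSF3 (-0.62 in Granta-519 and -1.68 in JeKo-1), 0.74 for SLBP (-0.71 and -1.45), 0.57 for ERI1 (-0.37 and -0.94), 0.52 for NPAT (-0.15 and -0.66) and -0.60 for LSM10 (-0.29 and 0.32). With the JeKo-1 values taken as log2 the differences of ERI1 (0.33) and NPAT (0.34) were not called, and with spike-in scaling that of LSM10 was 0.27 and not called. LSM10 was lower in all 3 silenced Granta-519 libraries and higher in all 3 silenced JeKo-1 libraries than in any control library of the line. The lines also differed in culture medium and in the depth of CCND1 loss (28.2% and 19.0% of the control mean left), and the part of these in the differences was not tested.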

How the results depend on the processing

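In JeKo-1 the 6 falls were called under every alternative run. In Granta-519, 3 to 6 factors fell when single libraries were left out (3 without shCtrl 1 or without shCycD1 1), 0 with spike-in scaling and 1 with spike-in scaling and without shCtrl 2, an alternative chosen after seeing the data. Risen factors there were 1 with quantile normalization (SYMPK), 3 with spike-in scaling and 4 without shCtrl 2 as well. In JeKo-1, 1 factor (LSM10) rose in the fit of all 12 libraries, with quantile normalization, with the replicate block and without shCtrl 2, and 0 to 1 rose with single libraries left out. Of all Granta-519 genes, 7331 rose and 157 fell with spike-in scaling, 7920 and 598 also without shCtrl 2, against 2840 and 2303. Of all JeKo-1 genes, 1697 rose and 1788 fell with it, against 4357 and 3303. With spike-in scaling these signs reversed in Granta-519: SLBP (0.034), NPAT (0.55), LSM10 (0.46), LSM11 (0.029), ERI1 (0.36), COIL (0.72) and CPSF3 (0.10), and also without shCtrl 2 NPAT (0.29), LSM10 (0.27), ERI1 (0.076) and COIL (0.50). In JeKo-1 COIL (-0.011) and SYMPK (-0.065) reversed, and differences between lines reversed for LSM10 (0.27), ZNF473 (0.72) and COIL (0.73), also without shCtrl 2 (0.084, 0.42 and 0.51). Values near 0 changed sign without single libraries: ZNF473 (-0.0091 to 0.15) and COIL (-0.053 to 0.021) in Granta-519, and SYMPK (-0.019 to 0.15) in JeKo-1. Taking JeKo-1 values as log2, 3 differences were called in place of 5, and that of LSM11 was -0.0047. The cause of these shifts was not tested.

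Same-numbered shCtrl and shCycD1 libraries had correlated deviations of 0.0055, -0.12 and 0.03 in Granta-519 and 0.19, 0.095 and 0.10 in JeKo-1. Pairing was not assumed, since it required every pair to exceed 0.1 and the second JeKo-1 pair was at 0.095, although in JeKo-1 each library correlated best with its own number, a hint from the data and not from the design. With the replicate block 4 factors fell in Granta-519, where LSM10 (-0.29, adjusted p = 0.0576) and LSM11 (-0.57, adjusted p = 0.084) were no longer called, and LSM10 rose in JeKo-1 (0.32, adjusted p = 0.00953). Genes called with it were 2285 risen and 1903 fallen in Granta-519, and 4901 and 3806 in JeKo-1.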
